A study of Mus musculus with 2 samples.

Results

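Monocytes, dendritic cells and macrophages other than Kupffer cells were examined in 2 droplet single-cell RNA libraries of mouse liver. Members were selected on measured values, by a rule on each cell's unique molecular identifier (UMI) counts, each UMI being 1 captured mRNA molecule. The summed UMIs of 7 myeloid genes (Lyz2, Csf1r, Ccr2, Cx3cr1, Flt3, Siglech and Cd209a) had to reach 5 and at least 10 per 10000 UMIs. The summed UMIs of 4 Kupffer cell genes (Clec4f, Cd5l, Vsig4 and Marco) had to lie below 5 per 10000, and those of the neutrophil genes S100a8 and S100a9 below 20 per 10000. The rule found 362 members among 16206 kept cells: 248 of 12593 in the DDC and cMet library and 114 of 3613 in the DDC library. Kupffer cells, which served as the comparison, had the 4 Kupffer genes at 10 per 10000 or more and numbered 3133 and 691.

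The DDC and cMet library came from Sox9-CreERT2:Rosa26-mTmG mice at 5 months of DDC diet with cMet delivered by hydrodynamic tail vein injection (HTVi), pooled with WT mice on normal diet at 0 days. The DDC library came from Sox9-EGFP mice after 2 weeks on DDC diet, pooled with WT mice on normal diet at 0 days. Each time was represented by 2 mice, and both libraries were of strain C57BL/6J;129S6/SvEvTac. DDC is a chemical that injures bile ducts and hepatocytes, cMet is the receptor of hepatocyte growth factor, and the Sox9 alleles are used to mark biliary and progenitor cells. Untreated and treated cells share 1 library and could not be told apart, so a value is that of the pool, and model, genotype, time and library cannot be told apart either. Each condition is 1 library, so no comparison below has a replicate check. The labels name the cells hepatocytes, and the submitters' protocol also speaks of enriched macrophages, so the shares of cells below depend on how the cells were isolated.

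Kupffer cells are the resident macrophages of the liver sinusoids and carry the receptors that clear particles, red cells and lipids from portal blood. Monocytes arrive from the blood through the chemokine receptor CCR2 and can become macrophages that, in injured liver, take on a lipid-handling state with TREM2 and GPNMB. Conventional dendritic cells take up antigen and show it to T cells on MHC class II molecules. Plasmacytoid dendritic cells are specialised in type I interferon production and depend on the transcription factor TCF4.

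Members had a median of 8460.5 UMIs and 2742 genes in the DDC and cMet library and 11823 UMIs and 3277 genes in the DDC library. Kupffer cells had medians of 2941 and 14238 UMIs in the same libraries, and all other kept cells 3554 and 26767, so depth differed between the classes and in opposite order. The libraries shared 50 cell barcodes, of which 8 were kept in both and 0 were members. Hepatocyte markers reached 200 per 10000 UMIs in 69 members (27.8%) of the DDC and cMet library and 33 members (28.9%) of the DDC library. Among Kupffer cells the same level was reached by 58.2% and 43.1%, so hepatocyte RNA was widespread in both classes.

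Members made up 1.97% of kept cells (exact 95% binomial interval 1.73 to 2.23) in the DDC and cMet library and 3.15% (2.61 to 3.78) in the DDC library. Set against Kupffer cells alone, they were 7.34% (6.48 to 8.27) and 14.2% (11.8 to 16.8) of the sum of both classes. The share was thus lower in the DDC and cMet library by both denominators, with intervals that cover counting error only and not the spread between mice.

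The genes of the rule are given as a description, since they chose the members. Lyz2, which encodes lysozyme, had a UMI in 222 of 248 members (89.5%) and in 98 of 114 (85.96%). Without Lyz2, 118 of the 248 and 56 of the 114 members would have missed the rule, while Siglech, a plasmacytoid dendritic cell receptor, was alone responsible for 23 and 10. Lyz2 stood at 6578 CPM (UMIs of the gene scaled to the summed UMIs of the class) in members and 3375 CPM in Kupffer cells of the DDC and cMet library, and at 4828 and 3476 CPM in the DDC library. Ccr2, the monocyte recruitment receptor, stood at 237 and 4.22 CPM in the first library and 174 and 17.4 CPM in the second. Csf1r, the receptor for macrophage colony-stimulating factor, is shared by both classes and was lower in members, at 410 and 812 CPM, and at 240 and 927 CPM. Members just inside the marker threshold, at 10 to 12 per 10000, numbered 7 and 15, and cells just outside it, at 8 to 10, numbered 8 and 13. Cells with myeloid genes but an intermediate Kupffer gene level of 5 to 10 per 10000 numbered 45 and 6 and belonged to neither class.

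Clustering the members within each library separated 8 clusters in the DDC and cMet library and 7 in the DDC library. A cluster was named only where at least 3 markers and 50% of a marker list were 2-fold above the other members. Clusters named for a macrophage, monocyte or dendritic cell held 166 of the 248 members and 72 of the 114. The remaining members were led by hepatocyte, endothelial, stellate or progenitor genes or stayed unnamed, so the label fits a part of the cells that the rule selects. Because the clusters were drawn from these genes, their defining genes are a description and not a result.

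**Figure D1:**
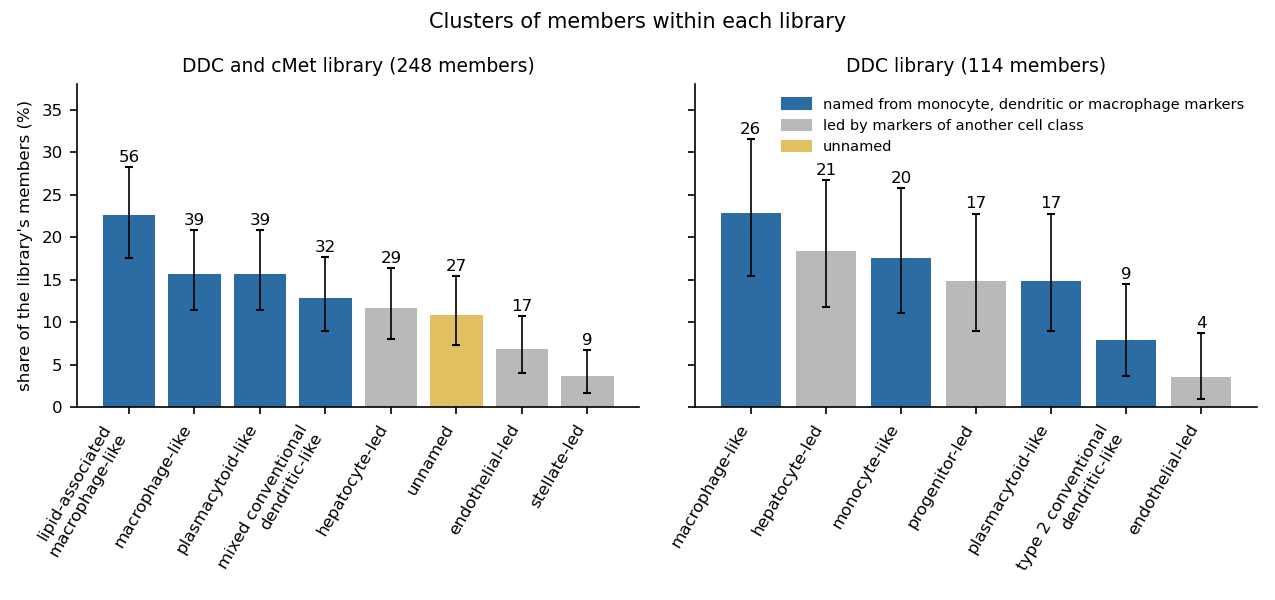
Share of members in each cluster (percent of the members of a library, y axis), with the DDC and cMet library left of the DDC library. Bars are labelled with cell numbers, error lines are exact 95% binomial intervals, and colours separate clusters named for a myeloid class, clusters led by markers of another class and the unnamed cluster. Macrophage-like clusters hold 56 and 39 cells in the DDC and cMet library and 26 cells in the DDC library.

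Macrophage-like members formed 2 clusters of the DDC and cMet library and 1 cluster of the DDC library. The larger one, with 56 cells (22.6% of members), carried 7 of 8 lipid-associated macrophage markers. In it Gpnmb, a transmembrane glycoprotein of lipid-laden macrophages, stood at 1821 CPM (95% Poisson interval 1716 to 1930), against 172 CPM in Kupffer cells. Fabp5, a fatty acid chaperone, stood at 2967 CPM against 218 CPM, and Trem2, a lipid-sensing receptor, at 1133 CPM (1051 to 1220) against 209 CPM. The complement gene C1qa, common to tissue macrophages, was at 3660 CPM in these cells and 3437 CPM in Kupffer cells. The iron exporter gene Slc40a1 (556 against 1894 CPM) and the Kupffer cell receptor genes Timd4 (25.8 against 273 CPM) and Folr2 (75.7 against 536 CPM) were lower than in Kupffer cells. None of these genes was part of the rule, but Gpnmb, Fabp5 and Trem2 were among the markers that named the cluster. The cluster also carried 4 of 12 Kupffer cell markers (Folr2, Slc40a1, Nr1h3 and Spic) 2-fold above the other members.

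The other macrophage-like cluster of the DDC and cMet library, with 39 cells (15.7%), had C1qa at 3871 CPM and Ms4a7 at 440 CPM but Gpnmb at only 193 CPM (150 to 243). It carried more Cx3cr1 (591 CPM), the fractalkine receptor gene, than the lipid-associated cluster (234 CPM), and more Ccr2 (140 against 12.9 CPM), both genes of the rule. Of its 10 leading genes, 5 are cell cycle or replication histone genes (Hist1h2ap, Hist1h2ae, Mki67, Top2a and Hist1h1b). Mki67, a marker of dividing cells, stood at 173 CPM in it, against 9.67 CPM in the lipid-associated cluster and 47.4 CPM in Kupffer cells, and was found in 10 of the 95 cells of both clusters, with 46.4% of its UMIs in 1 cell. Other leading genes came from single cells: 132 of the 133 Igfbp5 UMIs and 31 of the 35 Igfbp6 UMIs were in 1 cell, and all 33 Cd209f UMIs were in another. The cell with Igfbp5 also held 21 of 22 Krt19 UMIs and 27 of 27 Msln UMIs beside 155 Lyz2 and 21 C1qa UMIs, in 16636 UMIs.

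The macrophage-like cluster of the DDC library, with 26 cells (22.8%), carried 9 of 10 macrophage markers and 5 of 8 lipid-associated markers. It also carried 3 of 12 Kupffer cell markers. Gpnmb stood at 981 CPM (880 to 1090) there, against 74.9 CPM in Kupffer cells, Fabp5 at 1488 against 190 CPM, and Trem2 at 597 (518 to 683) against 131 CPM. Ms4a7, a membrane gene of monocyte-derived macrophages, was at 465 CPM in this cluster and 30.4 CPM in Kupffer cells, and at 609 and 45.8 CPM in the lipid-associated cluster of the other library. Lipid-handling genes were not all higher: Lpl, lipoprotein lipase, was at 637 CPM in the macrophage-like cluster and 1528 CPM in Kupffer cells of the DDC library. Markers of T or NK cells summed to 330 CPM in this cluster, with 84.5 per 10000 in 1 cell, and their part in the cluster's values was not tested.

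Monocyte-like members formed a named cluster in the DDC library, with 20 cells (17.5%). No cluster of the DDC and cMet library met the naming rule for monocytes. The DDC cluster carried 8 of 10 patrolling and 6 of 10 classical monocyte markers and was therefore not assigned to 1 type. Chil3, a chitinase-like protein gene of monocytes, stood at 2284 CPM (2042 to 2546) in it, against 4.14 CPM in Kupffer cells and 17.2 CPM in macrophage-like members. S100a4, a calcium-binding protein gene of migrating cells, was at 1230 CPM against 11.4 CPM, F13a1 at 302 against 1.32 CPM, and Ace, a patrolling monocyte gene, at 190 (125 to 276) against 1.70 CPM. In the DDC and cMet library Chil3 had 27 UMIs over all 248 members, of which 16 were in the dendritic-like cluster. That cluster carried 4 of 10 classical monocyte markers (Ccr2, Chil3, Plac8 and Ms4a4c) and 4 of 10 patrolling markers (Ace, Spn, Itgal and Pglyrp1). Both counts fell short of the naming rule, and whether the cluster includes monocytes was not tested.

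Conventional dendritic-like members were 32 cells (12.9%) in the DDC and cMet library and 9 cells (7.89%) in the DDC library. The 32-cell cluster carried 6 of 9 markers of each of types 1 and 2, beside the monocyte markers given above. It was not assigned to 1 type, and whether the markers lay in different cells was not tested. The 9-cell cluster carried 9 of 9 type 2 markers and 4 of 9 type 1 markers. Xcr1, the chemokine receptor gene of type 1 cells, was at 133 CPM (93.9 to 184) and 70.3 CPM (28.2 to 145) in these clusters, and at 1.13 and 2.17 CPM in the Kupffer cells of the same libraries. Clec10a, a lectin gene of type 2 cells, was at 994 CPM (808 to 1210) in the DDC cluster and 15.1 CPM in Kupffer cells. S100a4 was at 1016 and 1656 CPM in the dendritic-like clusters, against 0 CPM in both plasmacytoid-like clusters. Ccr7, which guides mature dendritic cells to lymph nodes, had 0 UMIs in the members of both libraries.

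Plasmacytoid-like members formed 1 cluster in each library, with 39 cells (15.7%) and 17 cells (14.9%), and carried 8 of 8 markers in both. Tcf4 stood at 2222 CPM (2048 to 2407) and 2529 CPM (2249 to 2833) in these clusters, against 119 and 141 CPM in Kupffer cells. Irf8, an interferon regulatory factor gene, stood at 3446 and 4061 CPM, against 239 and 254 CPM. Ccr9, a homing receptor gene, stood at 1002 CPM (886 to 1129) and 630.0 CPM (495 to 791), and it had 0 or 1 UMIs in each macrophage-like cluster. Their H2-Aa level, 2093 and 2171 CPM, lay close to that of Kupffer cells (1991 and 2043 CPM).

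Members in the other clusters carried RNA of other liver cells. In the DDC and cMet library 29 members were led by hepatocyte genes, 17 by endothelial genes and 9 by stellate cell genes, and 27 stayed unnamed with Mgl2 and Xcr1 among their leading genes. The endothelial-led cluster held Siglech at 488 CPM and Tcf4 and Ccr9 beside Ptprb and Kdr. Of the DDC members, 21 were led by hepatocyte genes, 17 by progenitor or cholangiocyte genes at a median of 53504 UMIs, and 4 by endothelial and stellate genes. Because of that depth, the 17 progenitor-led members weigh heavily in any sum over all DDC members, which is why the lists below are also given for the named clusters. No doublet caller was run, and the part of doublets in these members was not tested.

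**Figure D2:**
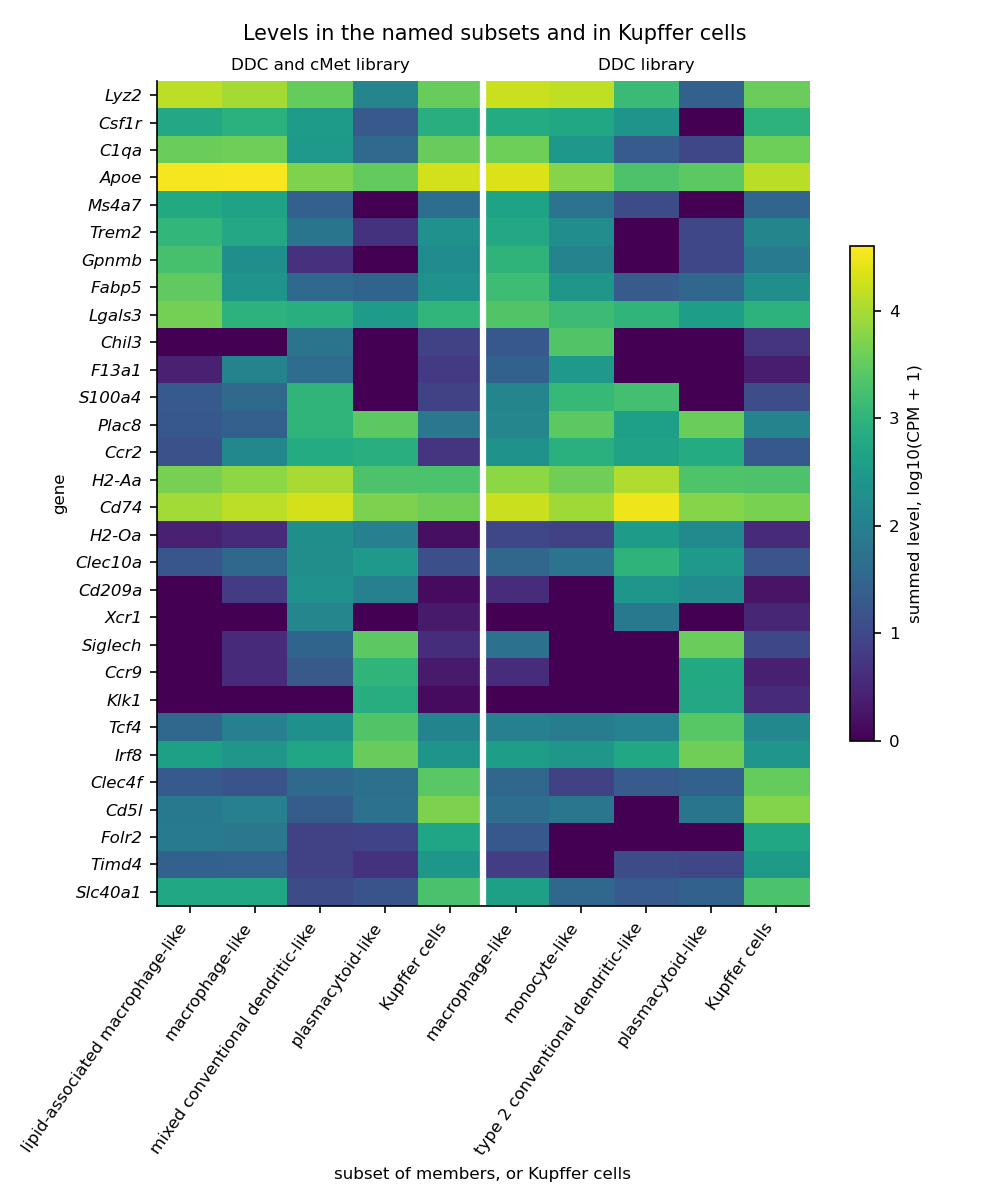
Heat map of the level of 30 genes (colour, log10 of CPM + 1) in the named member clusters and in Kupffer cells, with the DDC and cMet library to the left of the DDC library. Each row is a gene and each column a group of cells. Gpnmb reaches 1821 CPM in the lipid-associated macrophage-like cluster, Chil3 2284 CPM in the monocyte-like cluster, and Tcf4 2222 and 2529 CPM in the plasmacytoid-like clusters.

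Members were next set against Kupffer cells of their own library, gene by gene, on summed UMIs scaled to CPM. A gene with at least 50 UMIs over both sides was called at a 2-fold difference. In the DDC and cMet library 5.36% of 12153 genes were called higher and 5.22% lower, and in the DDC library 8.01% of 10965 genes were called higher and 11.6% lower. For the named clusters alone these shares were 5.21% and 17.8%, and 5.61% and 19.4%. Without cells that had hepatocyte markers at 200 per 10000 or more they were 6.12% and 5.72%, and 8.34% and 10.3%. That setting left out cells of both classes, whereas the named-cluster setting restricted members only. In the named clusters 12.05% and 4.17% of members reached that marker level, against 58.2% and 43.1% of all Kupffer cells. In the DDC and cMet library 652 genes were higher and 634 lower in the full sums, 914 and 1135 as means over cells, and 333 and 778 after thinning, which weighs kept cells equally, leaves out cells under 2000 UMIs and tests fewer genes. What set these splits apart was not tested. The median over all genes was 0.01 and -0.01 on the log2 scale, and -0.10 and -0.18 in the named clusters. The split between members and Kupffer cells follows the rule, so the counts below describe how the selected cells differ and are not evidence that they differ. Gene lists were chosen with results of these data known.

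Antigen presentation through MHC class II was higher in members. Of 11 list genes, 7 were called higher and 0 lower in the DDC and cMet library (list median 1.23 on the log2 scale), and 4 higher and 0 lower in the DDC library (0.54). In the named clusters the counts were 8 and 10 of 11, with medians of 1.51 and 1.68. H2-Eb1, a class II beta chain gene, stood at 1771 CPM (1722 to 1821) in members and 659 CPM (649 to 669) in Kupffer cells of the DDC and cMet library, a log2 ratio of 1.43. H2-Oa, whose product restrains peptide loading in B cells and dendritic cells, stood at 46.9 and 0.547 CPM (6.42) in that library and at 24.2 and 2.54 CPM (3.25) in the DDC library. Ciita, the master transactivator of class II genes, stood at 97.0 and 36.4 CPM (1.41) and at 95.05 and 47.5 CPM, which just passed the 2-fold call. Among subsets, H2-Aa was highest in the conventional dendritic-like clusters, at 9963 CPM (9596 to 10340) and 11490 CPM (10840 to 12180), and at 4504 to 6695 CPM in the macrophage-like clusters. H2-Oa was at 195 and 341 CPM in the dendritic-like clusters, 99.8 and 153 CPM in the plasmacytoid-like clusters and 1.61 to 8.60 CPM in the macrophage-like ones. MHC class I genes did not share this: 0 of 10 were called in either library over all members, with medians of 0.17 and 0.13, and 0 and 2 were higher in the named clusters.

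Class II genes share promoter elements, the X and Y boxes, through which CIITA is recruited. RefSeq promoters from 250 bases before to 50 bases after the gene start (build GRCm38.p6) were held for 8 of the 11 list genes, as 9 promoters. The core of the X box was searched as ACNGATG and its reverse complement CATCNGT, and that of the Y box as ATTGG and its reverse complement CCAAT; the motifs do not overlap each other. The Y core was found in 7 of the 8 genes and in 12289 of 32851 promoters in all (37.4%), and the X core in 6 of the 8 genes and in 3236 promoters (9.85%). The first counts are per gene, over all its promoters, and the shares are per promoter, so they differ in unit. Among the X matches, Ctss had no Y core and the match of H2-Aa lay on the opposite strand. In H2-Oa the X core began 137 bases and the Y core 43 bases before the start. A match describes the letters and not bound protein. H2-Eb1, H2-DMb1 and H2-DMb2 are shown because both cores lie within 120 bases upstream of their start on the strand of the gene, and H2-Aa because its level in each subset is given above. Windows of 120 bases run 5′ to 3′ on the strand of the gene, with matches on that strand in capitals. The X and Y cores begin 88 and 59 bases before the start in H2-Eb1 (chr17:34305747-34305866, plus strand), 91 and 61 in H2-DMb1 (chr17:34153071-34153190, plus strand) and 120 and 90 in H2-DMb2 (chr17:34145129-34145248, plus strand). The Y core of H2-Aa (chr17:34287824-34287943, minus strand) begins 48 bases before its start.
H2-Eb1: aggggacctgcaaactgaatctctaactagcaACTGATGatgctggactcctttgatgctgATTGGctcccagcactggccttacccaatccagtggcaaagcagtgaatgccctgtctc
H2-DMb1: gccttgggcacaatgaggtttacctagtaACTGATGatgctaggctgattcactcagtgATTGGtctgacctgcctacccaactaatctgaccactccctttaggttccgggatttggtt
H2-DMb2: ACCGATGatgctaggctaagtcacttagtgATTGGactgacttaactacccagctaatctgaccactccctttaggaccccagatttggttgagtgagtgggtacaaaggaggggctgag
H2-Aa: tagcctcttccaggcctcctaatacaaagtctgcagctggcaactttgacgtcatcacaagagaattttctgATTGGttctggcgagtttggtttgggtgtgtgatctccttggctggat
H2-DMb2, a chain of the peptide-loading molecule H2-M, stood at 28.7 CPM (22.4 to 36.2) in members and 8.76 CPM (7.07 to 10.7) in Kupffer cells of the DDC library (1.71), and at 3.10 in the named clusters. H2-DMb2 was among the type 2 dendritic cell markers that named a cluster, so the named-cluster value is a description.

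Of 14 calcium-binding and cytoskeletal genes, 9 were called higher in members and 0 lower in both libraries, with medians of 1.83 and 1.88, and 9 and 10 in the named clusters (1.96 and 1.93). S100a4 stood at 152 CPM (137 to 168) in members and 7.23 CPM (6.22 to 8.35) in Kupffer cells of the DDC and cMet library (4.39), and at 203 (186 to 222) and 11.4 CPM (9.45 to 13.6) in the DDC library (4.16). Lsp1, a leukocyte actin-binding protein gene, stood at 273 and 40.7 CPM (2.75) and at 207 and 41.9 CPM (2.31). Anxa1, an anti-inflammatory annexin gene, was at 173 and 28.4 CPM (2.61) in the DDC and cMet library. The adhesion list had 6 of 12 genes higher and 0 lower in the DDC and cMet library and 4 higher and 2 lower in the DDC library; in the named clusters it had 7 higher and 0 lower in both, with medians of 1.28 and 2.00. Itgam, an integrin chain gene of monocytes, was at 37.7 and 13.1 CPM (1.53) in the DDC library.

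Chemokine receptors were higher for 4 of 6 genes in the DDC and cMet library (median 2.28) and for 1 of 4 in the DDC library (0.35), and for 5 of 6 and 3 of 4 in the named clusters. Ccr9 stood at 127 CPM (113 to 142) in members and 1.17 CPM in Kupffer cells of the DDC and cMet library (6.76), and at 31.5 CPM (24.9 to 39.4) and 1.51 CPM in the DDC library (4.39). Xcr1 stood at 19.7 and 1.13 CPM (4.12) and Cxcr3, a T cell and dendritic cell receptor gene, at 14.6 and 2.19 CPM (2.74) in the DDC and cMet library. Chemokine ligands had no shared direction, with 2 of 17 higher and 2 lower, and 6 of 15 higher and 3 lower (2 and 3, and 5 and 3 in the named clusters). Ccl6, a macrophage chemokine gene, was lower in both libraries, at 260 and 991 CPM (-1.93) and at 255 and 1983 CPM (-2.96). Ccl24, an eosinophil attractant gene, was at 3.69 and 186 CPM (-5.65) in the DDC library. Ccl2, a monocyte attractant gene, was higher in all DDC members, at 1073 and 119 CPM (3.18), but lay at -0.75 in the named clusters; it is a leading gene of the progenitor-led cluster. Ccl20 likewise stood at 60.6 CPM over all DDC members and had 0 UMIs in the named clusters.

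Transcription factor genes of dendritic cells and monocytes had 6 of 17 higher and 0 lower in the DDC and cMet library (0.33; 7 higher and 0 lower in the named clusters), and 3 of 16 higher and 3 lower in the DDC library (-0.17; 6 higher and 0 lower in the named clusters). Runx3, needed for dendritic cell development, stood at 64.3 and 1.95 CPM (5.04) and at 36.5 and 2.26 CPM (4.01). Bcl11a, a plasmacytoid and B lymphoid factor gene, stood at 102 and 0.82 CPM (6.96) and at 37.3 and 3.67 CPM (3.34). Runx2 stood at 86.8 and 5.20 CPM (4.06) and at 42.6 and 8.10 CPM (2.40). Factors of resident macrophages went the other way, with 0 of 13 higher and 4 lower in the DDC and cMet library (-0.62), and 0 higher and 6 lower in the DDC library (-0.86), with 5 and 4 lower in the named clusters (-0.75 and -0.52). Nr1h3, which encodes the sterol receptor LXRα, stood at 106 and 381 CPM (-1.85) and at 78.2 and 392.1 CPM (-2.33). Maf, which keeps macrophages in their mature state, was at 184 and 724 CPM (-1.97) in the DDC library.

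Scavenger and clearance receptors were lower in members more often than any other list in both libraries. Of 13 genes, 7 were called lower and 0 higher in the DDC and cMet library (-1.18), and 10 lower and 0 higher in the DDC library (-2.03). The named clusters had 7 and 11 lower and 0 higher (-1.12 and -1.56). Timd4, a receptor for dying cells, stood at 17.4 and 273 CPM (-3.98) and at 6.55 and 316 CPM (-5.59). Mrc1, the mannose receptor gene, stood at 126 and 466 CPM (-1.89) and at 53.3 and 462 CPM (-3.12). Cd163, which takes up haemoglobin complexes, was at 5.13 and 42.8 CPM (-3.06) and at 2.87 and 276 CPM (-6.59). Folr2 and Fcna, a ficolin gene, were among the lowest named genes of both libraries, with Folr2 at 38.3 and 536 CPM (-3.81) and at 4.92 and 558 CPM (-6.83). Iron genes were lower for 2 of 10 and 5 of 10 (-0.63 and -0.94), and for 1 and 4 in the named clusters (-0.32 and -0.52), with Slc40a1 at 315 and 1894 CPM (-2.59) and at 155 and 1987 CPM (-3.68), and Hmox1, haem oxygenase, at 510 and 1328 CPM (-1.38) and at 212 and 1173 CPM (-2.47). Hmox1 differed among subsets, since it stood at 1378 CPM in the lipid-associated cluster and 500 CPM in the other macrophage-like cluster of the DDC and cMet library. Complement and Fc receptor genes had 2 of 12 lower over all members of the DDC and cMet library (-0.28) and 6 of 12 in the DDC library (-1.02), but 1 (-0.17) and 3 (-0.19) in the named clusters. Cfp, the properdin gene, stood at 114 and 582 CPM (-2.35) and at 42.6 and 522 CPM (-3.61).

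**Figure D3:**
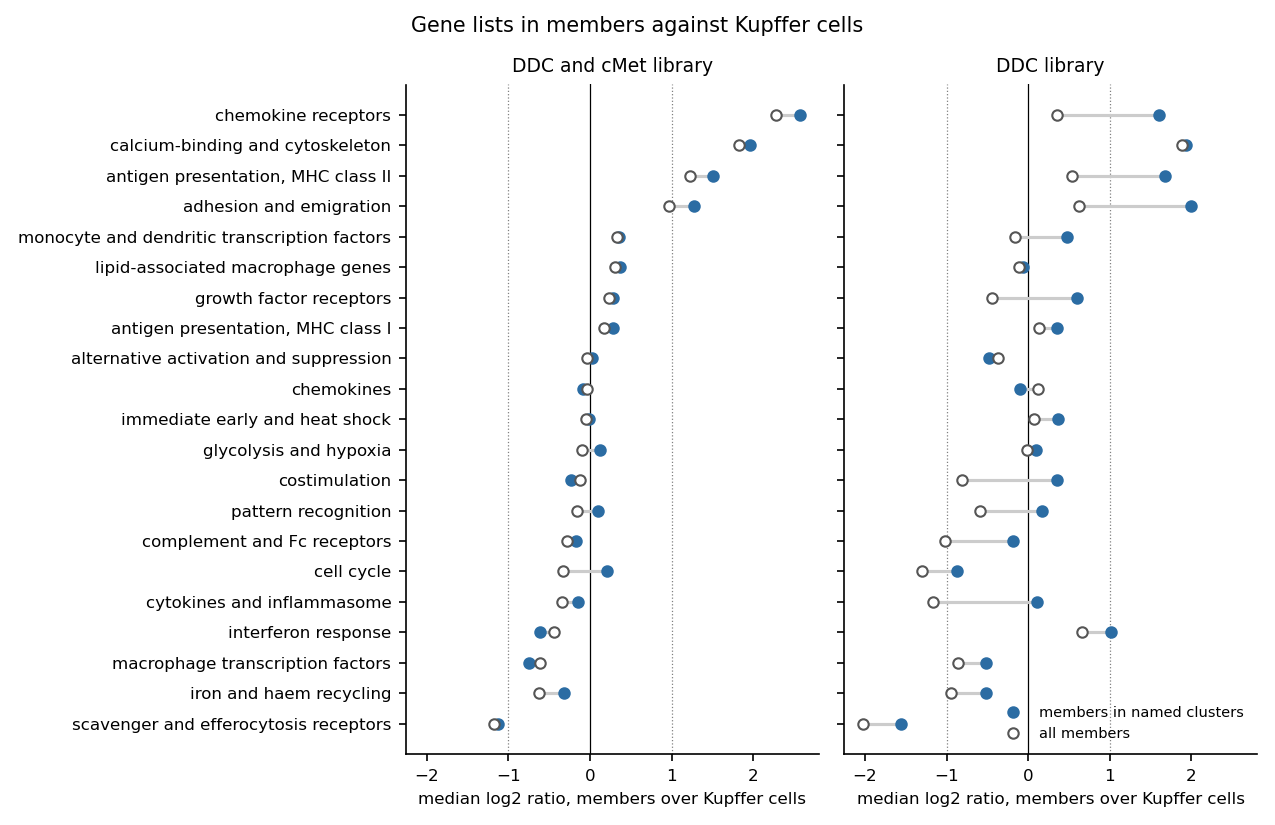
Median log2 ratio of members over Kupffer cells (x axis) for 21 gene lists (y axis), with the DDC and cMet library left of the DDC library. Filled points use members of the named clusters, open points use all members, and dotted lines mark a 2-fold difference. For the named clusters, MHC class II lies at 1.51 and 1.68 and the scavenger list at -1.12 and -1.56.

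Of the 18 genes of the lipid-associated list, 4 were higher and 1 lower in the DDC and cMet library (0.30), and 4 higher and 5 lower in the DDC library (-0.12). Named clusters alone had 6 higher and 0 lower (0.37), and 3 higher and 2 lower (-0.06). Gpnmb stood at 613 CPM (583 to 644) in members and 172 CPM (167 to 177) in Kupffer cells of the DDC and cMet library (1.83), and Fabp5 at 980 and 218 CPM (2.16). Lpl was lower, at 515 and 1183 CPM (-1.20) and at 231 and 1528 CPM (-2.73). Spp1, which encodes osteopontin, was the exception that depended on which members were summed. It stood at 8319 CPM in all DDC members against 895 CPM in Kupffer cells (3.22), but at -0.70 in the named clusters, and most of its UMIs lay in the progenitor-led (14870 CPM) and hepatocyte-led (8422 CPM) members.

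Interferon-stimulated genes differed between the libraries in their relation to Kupffer cells. In the DDC and cMet library 0 of 14 were higher and 3 lower (-0.44), and Rsad2, an antiviral enzyme gene, stood at 31.5 CPM in members and 129 CPM in Kupffer cells (-2.04). For the DDC library 5 were higher and 1 lower (0.66), and Rsad2 stood at 97.1 and 23.7 CPM (2.03). In the DDC library 1 macrophage-like cell of 17613 UMIs held 213 of the 237 Rsad2 UMIs, 68 of 94 Ifit3 UMIs and 103 of 227 Cxcl10 UMIs. Its interferon list summed to 299 per 10000 UMIs, where the next member had 19.5, the median member 2.97 and the highest Kupffer cell 82.9. Without that cell the DDC list had 0 higher and 3 lower and a median of -0.25, and Rsad2 lay at -1.26. The named clusters had 0 higher and 4 lower (-0.61), and 7 higher and 0 lower (1.015) with that cell or 0 and 3 (-0.08) without it. Irf7 was lower in both libraries, at 126 and 344 CPM (-1.45) and at 81.1 and 255 CPM (-1.66). Cxcl9, another interferon target, was called higher in the DDC and cMet library (118 and 32.9 CPM, 1.84), but 284 of its 299 UMIs were in 1 endothelial-led member.

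Over all members cytokine genes had 1 of 11 higher and 3 lower in the DDC and cMet library (-0.34) and 0 of 9 higher and 5 lower in the DDC library (-1.17). In the named clusters they had 2 higher and 2 lower (-0.15), and 1 higher and 3 lower (0.11). Il6 stood at 3.16 and 22.1 CPM (-2.81) and Il18 at 26.8 and 68.5 CPM (-1.35) in the DDC and cMet library, while Osm, oncostatin M, was higher at 29.2 and 10.98 CPM (1.41). Costimulatory genes had 2 of 7 higher and 1 lower, and 1 of 6 higher and 3 lower; in the named clusters 2 were higher and 0 lower in both. Pattern recognition genes had 1 of 13 higher and 2 lower, and 0 of 11 higher and 3 lower, with 1 and 1, and 1 and 0 in the named clusters. Clec4e, the lectin Mincle, was the higher gene in the DDC and cMet library, at 15.4 and 3.24 CPM (2.25). Growth factor receptor genes had 0 of 11 higher and 0 lower, and 0 higher and 2 lower, with 1 and 2 higher and 0 and 1 lower in the named clusters. Alternative activation genes had 1 of 10 higher and 2 lower, and 2 of 8 higher and 2 lower, with 2 and 3, and 2 and 2 in the named clusters. Cell cycle genes had 0 of 12 higher and 2 lower (-0.33), and 0 higher and 8 lower (-1.30), but 0 and 0 (0.21), and 1 and 5 (-0.87) in the named clusters, with Mki67 at 10.2 and 51.7 CPM (-2.34) in the DDC library. Immediate early and glycolysis genes held at most 1 called gene in each direction in either library over all members, and at most 2 in the named clusters.

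The highest of all named genes in the DDC and cMet library, by log2 ratio over Kupffer cells, were Iglc3 (8.00), Klk1 (7.90), Bcl11a (6.96), Igfbp5 (6.93), Ccr9 (6.76), Ighm (6.35) and Ly6c2 (6.32). Klk1, a kallikrein gene, stood at 93.5 CPM (81.9 to 106) in members and 0.391 CPM in Kupffer cells, and Ly6c2, a surface antigen gene of classical monocytes and plasmacytoid dendritic cells, at 159 CPM (144 to 176) and 1.99 CPM. Igfbp5 came from the single cell described above and lay at -0.11 without it. Chil3 in the DDC library stood at 141 CPM (126 to 157) in members and 4.14 CPM in Kupffer cells (5.09), and Ly6c2 at 85.6 and 5.27 CPM (4.02). Among the lowest, Pcolce2, a collagen-processing enhancer gene, stood at 0.789 and 124 CPM (-7.30) in the DDC and cMet library and at 0.41 and 169 CPM (-8.69) in the DDC library. Kcna2, a potassium channel gene, stood at 0.394 and 71.1 CPM (-7.49) in the DDC and cMet library. Camp, a granule peptide gene, had 0 UMIs in members of the DDC and cMet library and 59.3 CPM in Kupffer cells, which at a floor of 3 UMIs gives a log2 bound of -5.65. Neutrophil markers summed to 35.1 CPM in members and 457 CPM in Kupffer cells of that library, and the rule bounds 2 of them in members only.

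Shares of cells with a UMI were compared after thinning each cell to 2000 UMIs, which left out 29 of the 248 and 2 of the 114 members. Ccr9 was then seen in 33 of 219 members (15.1%) and 11 of 112 (9.82%), against 0.105% and 0.189% of Kupffer cells and 0.1% and 0.309% of other kept cells; unthinned, the member shares were 18.95% and 15.8%. Ly6c2 was seen in 19.6% of members in both libraries, against at most 0.791% in Kupffer or other cells. Gpnmb was seen in 26.0% and 17.9% of members, against 14.5% and 6.62% of Kupffer cells and 0.836% and 0.84% of other cells. Cd74, the class II invariant chain, was seen in 93.2% and 91.07% of members and 88.5% and 91.3% of Kupffer cells, so its share did not separate the classes. It was also seen in 19.4% and 26.7% of other kept cells. C1qa was seen in 62.6% and 41.07% of members and 89.4% and 90.4% of Kupffer cells.

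The DDC and cMet library was then set against the DDC library within members. Of 8789 genes, 7.65% were called higher and 8.31% lower over all members, with a median of -0.03 over all genes. The shares were 5.04% and 4.2% of 7258 genes without members rich in hepatocyte markers, and 4.16% and 2.25% of 5555 genes in the named clusters. Over all members the highest genes included stellate collagen genes (Col1a2, 130 and 3.28 CPM, 5.31) and the lowest included progenitor genes (Spp1, 202 and 8319 CPM, -5.36; Sox9, 9.07 and 177 CPM, -4.29). In the named clusters these lay at 0.47, -1.55 and -0.11. Stellate markers summed to 1498 and 286 CPM over all members of the libraries, and progenitor markers to 275 and 8631 CPM. Chil3 was lower in the DDC and cMet library, at 10.7 and 141 CPM (-3.73), and at -5.48 in the named clusters.

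Lists were read over all members and over the named clusters. Immediate early genes were higher in the DDC and cMet library for 6 of 13 over all members (0.93) and 4 of 13 in the named clusters (0.73). Cytokine genes were higher for 6 of 9 (1.504) and 3 of 9 (0.47). The scavenger list, with 8 of 12 higher over all members (1.08), had 1 of 11 higher in the named clusters (0.48), and the dendritic and monocyte transcription factor list had 7 of 15 (0.99) and then 0 (0.00). MHC class II had 1 of 11 higher and 0 lower over all members (0.58), but 0 higher and 1 lower in the named clusters (-0.42).

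Macrophage-like members were set against each other between the libraries, with 95 cells and 984266 UMIs in the DDC and cMet library and 26 cells and 348708 UMIs in the DDC library. The first set pools 2 clusters and the second is the single cluster with T or NK markers described above. Of 3509 genes, 6.24% were called higher and 2.65% lower, and the median over all of them was -0.06. Tnf, the tumour necrosis factor gene, stood at 339 CPM (304 to 378) and 14.3 CPM (4.66 to 33.5), a log2 ratio of 4.57 (exact interval 3.33 to 6.20). A Tnf UMI was found in 49 of 95 cells and 3 of 26 cells. Cxcl2, a neutrophil attractant gene, stood at 1893 and 235 CPM (3.01, 2.69 to 3.35) and was found in 72 of 95 and 11 of 26 cells. Ccl4, a chemokine gene, stood at 1472 and 318 CPM (2.21, 1.93 to 2.50). The chemokine list as a whole had no shared direction, with 4 of 12 higher and 4 lower and a median of -0.42. The lower ones included Cxcl9 at 1.02 and 396 CPM (-8.61) and Ccl5 at 6.10 and 221 CPM (-5.18), which had 68.8% and 55.8% of their DDC UMIs in 1 cell. Cxcl10 was also lower (-1.14) but lay at 1.68 without the top cell of each library, and Ccl2 lay at -1.06. A single DDC cell held 67.6% of the Ccl4 UMIs there, and without the cell with most UMIs in each library the ratio was 3.71. The immediate early gene Atf3 stood at 590 and 77.4 CPM (2.93), Egr1 at 756 and 166 CPM (2.18) and Junb at 1121 and 444 CPM (1.33). Il1a and Il1b, the interleukin 1 genes, had ratios of 2.24 and 1.96, and Nfkbia, an NF-κB inhibitor and target gene, 1.31. Over the lists, 5 of 12 immediate early genes were higher and 0 lower (0.89). Cytokine genes had 3 of 8 higher and 1 lower (0.37). Of 12 cell cycle genes 3 were tested and 2 called higher (2.45). Those 2, Mki67 (69 and 2 UMIs) and Stmn1 (108 and 7 UMIs), passed the UMI minimum only through the DDC and cMet library. The cell cycle count and median are therefore a description, and 46.4% and 31.5% of these UMIs there were in 1 cell each.

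Both macrophage-like clusters of the DDC and cMet library showed these levels. Tnf stood at 421 CPM in the lipid-associated cluster and 201 CPM in the other, Cxcl2 at 2262 and 1262 CPM, Ccl4 at 1254 and 1845 CPM, and Atf3 at 591 and 588 CPM. Kupffer cells of the same libraries showed the shift as well: Tnf stood at 156 and 7.06 CPM (4.46), Cxcl2 at 965 and 221 CPM (2.13), and Atf3 at 257 and 42.4 CPM (2.60), and 10 of 13 immediate early genes were higher (1.10), where 5.12% of 12495 genes were called higher and 2.83% lower. In all other kept cells, where 8.59% of 14385 genes were called higher and 10.4% lower, 1 of 13 immediate early genes was higher (0.34), while 5 of 10 cytokine genes were higher and 1 lower (1.42). The medians over all genes were -0.12 in Kupffer cells and -0.23 in other kept cells. Cxcl1 had a larger ratio in macrophage-like members (311 and 28.7 CPM, 3.44) than in Kupffer cells (223 and 126 CPM, 0.82), a difference that was not tested.

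**Figure D4:**
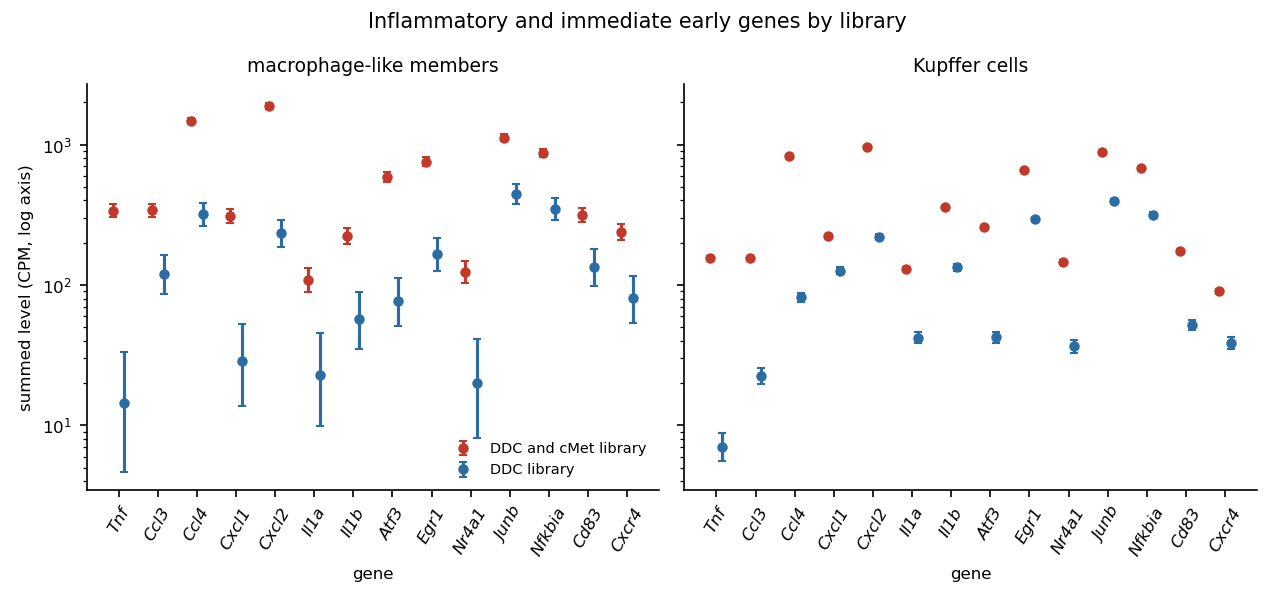
Level of 14 cytokine, chemokine and immediate early genes (CPM, log axis) in macrophage-like members and in Kupffer cells, with red points for the DDC and cMet library and blue points for the DDC library. Bars are exact 95% Poisson intervals of the summed UMIs and cover counting error only. Tnf lies at 339 and 14.3 CPM in macrophage-like members and at 156 and 7.06 CPM in Kupffer cells.

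Some genes were lower in macrophage-like members of the DDC and cMet library. H2-Eb1 stood at 2017 CPM in the DDC and cMet library and 6278 CPM in the DDC library (-1.64, -1.73 to -1.55), and at 659 and 1533 CPM in Kupffer cells (-1.22). Of 9 MHC class II genes 2 were lower and 0 higher (-0.61), and Ciita lay at -1.04. S100a4 stood at 26.4 and 129 CPM (-2.29), Plac8 at 20.3 and 135 CPM (-2.73), and Spp1 at 233 and 909 CPM (-1.97, with -2.45 in Kupffer cells). Other monocyte genes did not all share this direction. Nr4a1 was higher (2.63), Cx3cr1, a rule gene, lay at -0.04 and Fn1 at -0.21, while Ms4a4c was lower (-1.27). F13a1 lay at 0.73, but 1 cell held 80.95% of its UMIs in the DDC and cMet library. Without the top cell of each library F13a1 lay at -0.55. Ccr2, a rule gene, stood at 59.9 and 218 CPM (-1.86). The interferon list had 4 of 11 lower and 0 higher (-0.66), but 1 DDC cell held 99.5% of the Rsad2 UMIs, 88.3% of the Ifit3 UMIs and 89.2% of the Ifit1 UMIs. Hepatocyte RNA was higher in the DDC and cMet cells, with Alb at 2482 and 923 CPM (1.43, with 1.29 in Kupffer cells), and its part in these ratios was not tested.

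Plasmacytoid-like members held their defining genes, given as a description, at less than a 2-fold difference between the libraries. In 39 and 17 cells, Siglech stood at 2766 and 3482 CPM (-0.33), Irf8 at 3446 and 4061 CPM (-0.24) and Tcf4 at 2222 and 2529 CPM (-0.19). Of 1167 genes, 4.97% were called higher and 1.63% lower. Ccl4 stood at 314 and 25.5 CPM (3.62) and was found in 15 of 39 and 3 of 17 cells, the same direction as in macrophage-like members. Jaml, a junctional adhesion gene, stood at 336 and 111 CPM (1.60). Itgb7, an integrin chain gene of gut homing, was lower at 104 and 247 CPM (-1.25), as was H2-Eb1 at 492 and 1039 CPM (-1.08).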

How the data were processed

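The deposited files are 10x matrices of raw UMI counts per gene and cell barcode with their gene and barcode lists (3′ v3 chemistry, build mm10, per the labels' protocols and the submitters' processing notes). The authors' counting tool was Cell Ranger 6.0.1 per the submitters' processing notes and 5.0.1 per the file headers. Those notes also list Seurat 4.0.1 and STAR 2.5.2b without their role. Of 18316 and 8694 barcodes in the DDC and cMet library and the DDC library, 12593 and 3613 were kept on having 500 or more genes, 1000 or more UMIs and a mitochondrial share of up to 30%. No doublet caller was run. The members and gene lists were chosen with earlier results of these data known.

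Class UMIs (2535747 and 2441327 for members) were summed and scaled to CPM, leaving out the EGFP reporter. With 1 library per condition no test was run: ratios carry exact conditional intervals and shares exact Clopper-Pearson intervals at 95%, which cover counting error only. PCR, mouse and library variation are not in them. A fold against 0 UMIs uses a floor of 3 UMIs on that side. Genes with at least 50 UMIs over both sides were called at 2-fold, and the interval code was tested on simulated data. Named genes were, per comparison, the 12 highest and 12 lowest ratios among genes of at least 50 CPM on a side (mitochondrial, ribosomal, unnamed and rule genes, and genes over 3 times higher in other cells, left out), and up to 4 genes per list. Some genes that this rule names are not reported here. Genes named from the clusters and from macrophage-like and plasmacytoid-like members were chosen after their values were seen.

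Members were clustered within each library (Leiden, 1000 variable genes, 20 components, 15 neighbours, resolution 1), and the naming rule was set after seeing the data. Alternatives changed the cell filter, marker thresholds, gene minimum, scaling and thinning; the named-cluster, hepatocyte-marker and single-cell alternatives were chosen after seeing the data. Software was scanpy 1.11.5, leidenalg 0.10.2, igraph 0.11.9, matplotlib 3.10.9, scipy 1.17.1, numpy 2.4.6 and pandas 2.3.3 under Python 3.11.15.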

Additional observations from a re-analysis of the deposited data

Results flagged for a closer look

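Rsad2 stood lower in members than in Kupffer cells of the DDC and cMet library, at a log2 ratio of -2.04, and higher in the DDC library, at 2.03, and this opposite direction drew attention. The difference between the libraries was not tested. In the named clusters the values were -1.96 and 3.68. Without the 1 DDC macrophage-like cell that held 213 of 237 UMIs the DDC value was -1.26, the same direction as in the other library.

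The Sox9 reporter transcript EGFP, which no comparison above used, was found in DDC members at 152.8 CPM (137.7 to 169.1), against 27.0 CPM in Kupffer cells and 134 CPM in other kept cells. It was found in 22 of 114 members. Progenitor-led members stood at 322 CPM and hepatocyte-led members at 100.1 CPM, while the macrophage-like, monocyte-like and plasmacytoid-like clusters held 1 UMI each and the dendritic-like cluster 0. The DDC and cMet library carries tdTomato as its added feature, which had 0 UMIs in members (at most 1.46 CPM by the interval). It also had 0 UMIs in Kupffer cells and 2 UMIs in all other kept cells, so its absence is not particular to members.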

How the results depend on the processing

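No paired analysis was possible because each condition is 1 library and no test was made. The main limits are 1 library per condition, pooled mice and times, sums that weigh deep cells most, and RNA of other cell classes in members. Over all alternatives 76 of the main values and counts stayed within their counting interval or 1.5 times the count, and 46 did not; of the named genes and lists 3767 stayed, 1185 moved and 29 changed sign. No member had S100a8 and S100a9 at 5 per 10000 or more, so that setting could change nothing, and its values are counted among those that stayed. Totals without mitochondrial and hepatocyte genes moved no value or count past these limits.

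Members of the DDC and cMet library were 3.05% of kept cells under a stricter cell filter (1000 genes, 3000 UMIs, 20% mitochondrial share), 0.834% with no Kupffer gene UMI allowed, 1.60% without members rich in T or NK, B or endothelial markers and 1.42% without cells rich in hepatocyte markers; of members and Kupffer cells it was 11.3% (stricter cells), 3.24% (no Kupffer UMI) and 12.01% (hepatocyte). In the DDC library the share of kept cells was 4.01% (stricter cells), 2.30% (marker sum of at least 20 per 10000), 1.27% (no Kupffer UMI) and 2.24% (hepatocyte), and of both classes 18.1%, 10.7%, 6.24% and 17.1% under the same settings.

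Against Kupffer cells of the DDC and cMet library the genes lower numbered 1428 with no Kupffer UMI, 1135 as means over cells and 2145 in the named clusters; the genes higher and lower were 333 higher after thinning, 284 and 390 with at least 200 UMIs, and 5817 higher with at least 1 UMI. In the DDC library 164 and 476 were higher and lower after thinning, 421 and 778 at 200 UMIs, 4714 higher at 1 UMI, and 2059 lower in the named clusters. Between libraries the counts higher and lower were 438 and 437 (marker sum of 20), 112 and 89 (thinned), 274 and 283 (200 UMIs), 2506 and 2668 (1 UMI), 366 and 305 (hepatocyte) and 231 and 125 (named clusters), with 344 higher without a Kupffer UMI. Thinned to 1000 UMIs, member shares in the DDC and cMet library were 9.27% for Ccr9, 18.1% for Gpnmb and 11.7% for Ly6c2; unthinned, Gpnmb was at 33.5% and 37.7% in the libraries.

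Against Kupffer cells of the DDC and cMet library, Cxcl9 changed sign, at -2.80 (marker sum of 20), -1.64 (no Kupffer UMI) and -3.07 (named clusters). It also lay at -2.17 without cells rich in T or NK, B or endothelial markers, and at -2.46 without its top member. Other sign changes there were Igfbp5 at -0.11 (without its top member), Ccnb1 at 0.12 (no Kupffer UMI) and 0.70 (thinned) and Ccna2 at 0.11 (thinned). In the DDC library they were Rsad2 at -2.29 (no Kupffer UMI) and -1.26 (without its top member), Il1b at 0.0225 (means over cells), 0.0317 (thinned) and 0.11 (named clusters), and, after thinning, Ccna2 at 0.24, Ccnb1 at 1.02, Cd80 at 0.0699, Hspa1a at 0.12 and Il6 at 1.02. In the named clusters Ccl2 was at -0.75, Ccl7 at -0.47, Psca at -2.40, Spp1 at -0.70 and the cytokine list at 0.11. Between libraries Ccl24 was at -2.69 and Rsad2 at 0.44 with no Kupffer UMI, and Cxcr3 at -0.16, Guca2b at 0.21 and Tfec at -0.11 in the named clusters. Apart from the single cells named here, the cause of these changes was not tested.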
